A study of Mus musculus with 6 samples.

Results

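Translation initiation factor genes were examined after silencing of Ep300 in RAW264.7, a macrophage cell line from a male mouse. The members were all genes of the deposited count table whose symbol begins with Eif followed by a digit from 1 to 6, without pseudogene symbols, which gave 56 of 49492 rows. Cells transfected for 48 h with 50 nM of an siRNA against Ep300 formed 1 group and cells transfected the same way with a control siRNA the other, with 3 libraries each. The labels give the genotype as Ep300 silenced in the first group and as wild type in the second, and the control cells were of the same generation. Separate cultures are not stated for the libraries of a group, so the p-values describe the spread between these 6 samples and that spread may be technical. The protein p300, encoded by Ep300, acetylates histones and other proteins and acts as a coactivator of transcription.

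Initiation factors bring the initiator tRNA and the small ribosomal subunit to the start codon of an mRNA. The factor eIF2 carries the tRNA and eIF2B recharges eIF2 with GTP, while eIF3 is the scaffold on the small subunit. The eIF4F complex joins the cap-binding protein eIF4E, the scaffold eIF4G and the RNA helicase eIF4A. In macrophages the step is a known control point of inflammatory protein synthesis, through kinases that phosphorylate eIF2 alpha and through binding proteins that sequester eIF4E. The symbol rule also takes in genes that are not initiation factors in the strict sense. These are the 4 eIF2 alpha kinases, the 3 eIF4E-binding proteins, the eIF4E transporter Eif4enif1, the exon junction helicase Eif4a3 and the eIF1A-like gene Eif1ad. Also among them are Eif5a, which acts mainly in elongation, and Eif6, a ribosome anti-association factor. The last is Eif2c5, which is annotated as a noncoding RNA under an older Argonaute name.

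Total counts ranged from 29993567 to 37132333 in the Ep300 siRNA libraries and from 35930658 to 45377510 in the control siRNA libraries. Ep300 itself fell, with 51.1, 59.0 and 54.9 CPM (read counts relative to the scaled total of the library) in the Ep300 siRNA libraries, against 106.7, 115.2 and 118.3 CPM in the control libraries (log2 fold change −1.04 ± 0.07, SE; edgeR adjusted p = 3.62e-05). Of 8 macrophage markers 7 had at least 62.1 CPM in every library, and Mertk was near 0 (at most 0.404 CPM). The summed level of 17 markers of lymphoid, epithelial, endothelial and fibroblast cells was 1.30 to 1.78 CPM in Ep300 siRNA libraries and 1.78 to 2.08 CPM in control libraries, with Ncr1, Klrb1c and Epcam at 0 throughout. Ep300 siRNA replicate 1 stood apart, with the most extreme score on the first principal component and 5819 CPM of Gm42418, whose locus overlaps a ribosomal RNA repeat, against 1326 to 2172 CPM in the other libraries. In bulk RNA a change in the mix of cells and a change in RNA per cell cannot be told apart.

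Of the 56 members, 53 were high enough to test, and 3 of them passed, all of which rose: Eif4g3, Eif4a1 and Eif2ak2. None fell at an adjusted p under 0.05, and 10 of the 53 (18.9%) had an unadjusted edgeR p under 0.05, against 22.2% of all genes tested. The 3 calls are 5.66% of the tested members, close to the 6.78% called among all 15741 genes tested, of which 2.76% rose and 4.02% fell. DESeq2 and limma-voom each called the same 3 members. The 3 genes do not all belong to the same step: Eif4g3 and Eif4a1 encode parts of the cap-binding complex, and Eif2ak2 encodes a kinase that shuts initiation down.

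The 50 other tested members had log2 fold changes between −0.27 and 0.26. For 49 of these 50 the whole 95% interval lay within a 1.5-fold change in either direction, the exception being Eif4ebp3. The median standard error over the tested members was 0.063 on the log2 scale. The groups did not overlap for 15 of the 53 tested members (28.3%), against 27.5% of all genes tested. The Ep300 siRNA libraries all lay above the control libraries for 10 members and all below for 5, against 13.0% and 14.4% of all genes. The median log2 fold change of the members was 0.03, against 0.00 for all genes, and it was −0.01 with library sizes alone, without scaling factors, where that of all genes was −0.04. Of the members not tested, Eif2c5 had 0 counts in every library, and Eif4e1b and Eif5a2 had at most 2 counts in any library. If reads were counted singly, 0 counts allow up to 3 counts or 0.1 CPM in the shallowest library. Small counts were mostly even, so this limit may be higher.

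**Figure D1:**
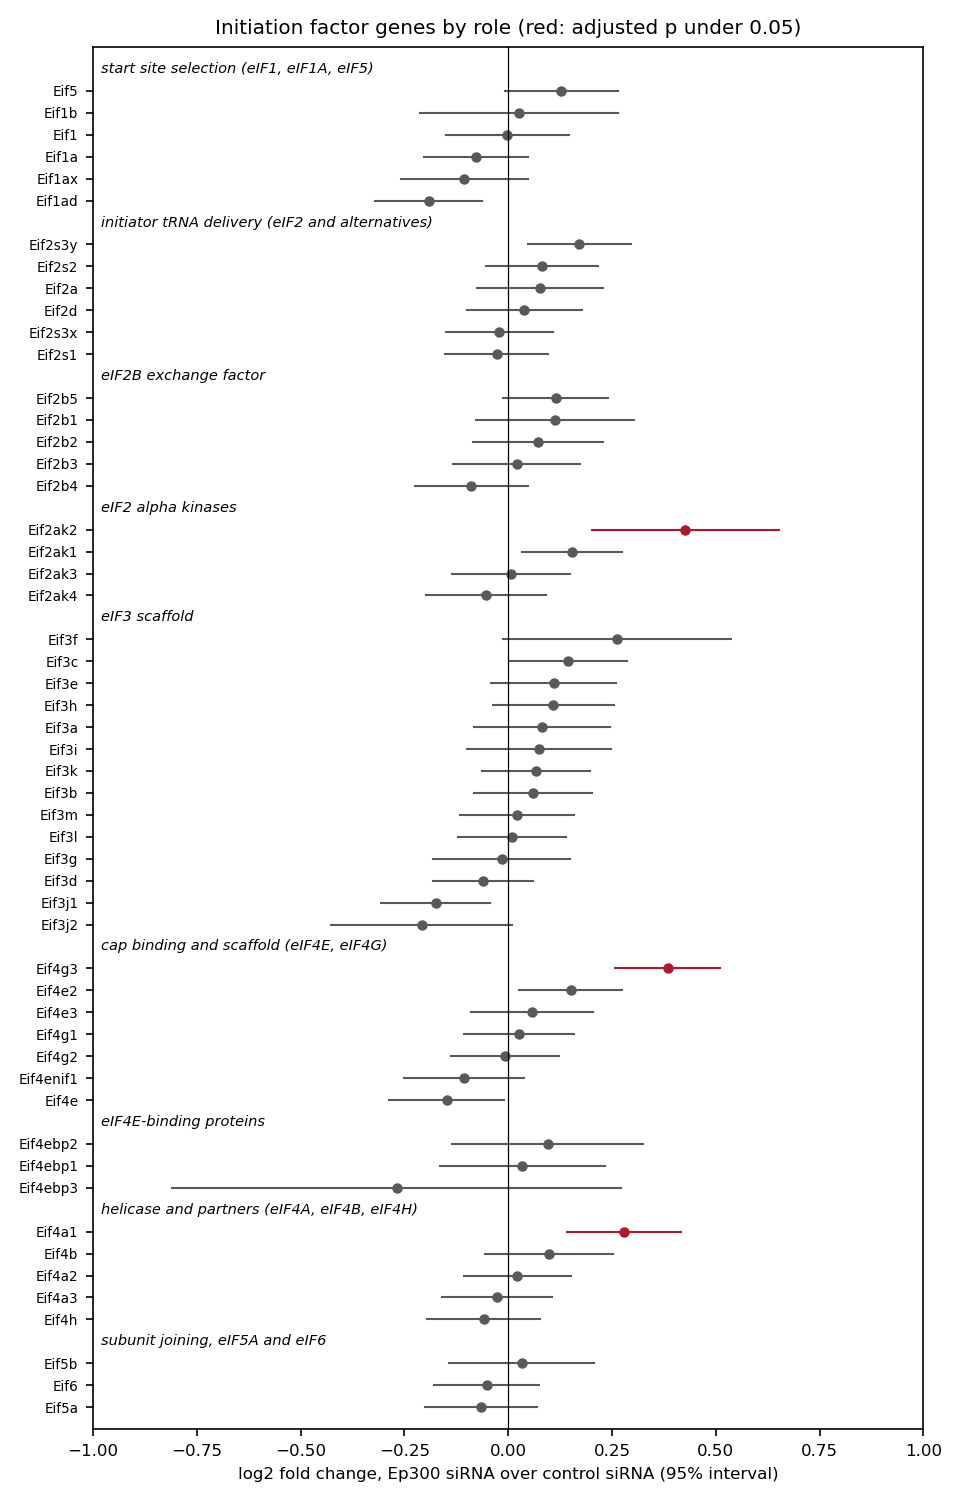
Log2 fold change of Ep300 siRNA over control siRNA (x axis) with its 95% interval for each of the 53 tested members, grouped by role and sorted within a role. Red marks the 3 genes with an edgeR adjusted p under 0.05, at 0.43 (Eif2ak2), 0.38 (Eif4g3) and 0.28 (Eif4a1), and grey the other 50, between −0.27 and 0.26.

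Levels per length of annotated exon differed far more between members than between groups. That length is the union over all annotated transcripts of a gene and can exceed that of its main mRNA, so the order of members is approximate. On the scale of CPM per kilobase of annotated exon, the highest tested member was 291 times the lowest in the control libraries. The highest was Eif3a, the largest eIF3 subunit, at 524.9 ± 33.5 in Ep300 siRNA libraries and 496.2 ± 20.3 in control libraries (CPM per kb, SD, n = 3). Eif3c, which links eIF3 to other factors of the preinitiation complex, followed at 383.5 ± 12.6 and 347.0 ± 11.4 CPM per kb in the same order of groups. Eif4a1 had 169.1 ± 4.21 CPM per kb in Ep300 siRNA libraries and 139.4 ± 5.43 in control libraries. Eif4b, a cofactor of the helicase, had 147.3 ± 5.04 CPM per kb in Ep300 siRNA and 137.6 ± 9.84 in control libraries. Eif3h, an eIF3 subunit with an MPN domain, had 144.0 ± 10.9 CPM per kb in Ep300 siRNA and 133.5 ± 2.47 in control libraries. In the control libraries Eif4a1, Eif4b and Eif3h lay within their spread of one another, while Eif3a and Eif3c stood above them. The lowest tested members were Eif4ebp2, at 1.82 CPM per kb in Ep300 siRNA and 1.71 in control libraries, and Eif4ebp3, at 1.57 and 1.90 CPM per kb in the same groups.

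**Figure D2:**
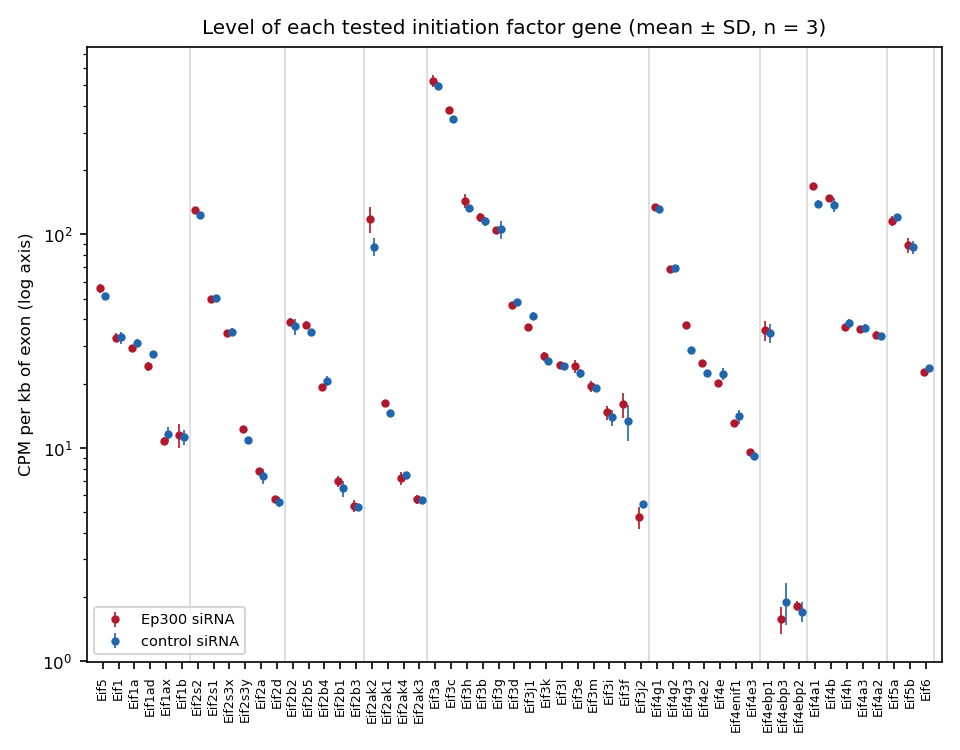
CPM per kilobase of exon on a log axis for each tested member (mean ± SD of 3 libraries), with Ep300 siRNA in red left of control siRNA in blue; vertical lines separate roles. Eif3a is highest at about 525 and 496, and the 2 groups lie close together for most members, with Eif4g3, Eif4a1 and Eif2ak2 visibly apart.

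Cap binding and its scaffold held the clearest change. Eif4g3, a paralog of eIF4G1 that bridges the cap-binding protein and the helicase (GRCm38 chromosome 4, 137993022 to 138208508, plus strand), had 415.4, 421.9 and 410.5 CPM in Ep300 siRNA libraries, against 326.0, 314.3 and 315.8 CPM in control libraries. Every Ep300 siRNA library lay above every control library, and the 3 libraries within a group differed little. The rise was 1.30-fold (log2 fold change 0.38 ± 0.06, SE, 95% interval 0.26 to 0.51; edgeR adjusted p = 0.00296). It passed in every alternative run, including each library left out in turn (edgeR adjusted p up to 0.0211), and was as large without Ep300 siRNA replicate 1, at 0.39.

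Its relatives gave other values. Eif4g1, the main scaffold, had 998.5, 963.7 and 975.4 CPM in Ep300 siRNA libraries, against 955.8, 957.9 and 972.8 CPM in control libraries, and did not pass (log2 fold change 0.03, 95% interval −0.11 to 0.16; edgeR adjusted p = 0.855). Eif4g2, which lacks the eIF4E-binding part and serves cap-independent initiation, was at −0.01 on the log2 scale (edgeR adjusted p = 0.957). The log2 ratio of Eif4g3 to Eif4g1, which does not depend on library scaling, was −1.26, −1.19 and −1.25 in Ep300 siRNA libraries, against −1.55, −1.61 and −1.62 in control libraries. Eif4g3 thus made up 15.6% ± 0.30 of the summed eIF4G level per kilobase in Ep300 siRNA libraries and 12.5% ± 0.25 in control libraries (SD, n = 3). With 3 libraries against 3, an exact permutation test cannot give a two-sided p below 0.1, so ratios are given as values. The groups overlapped for the ratios of Eif4g2 to Eif4g1, Eif3j1 to Eif3j2 and Eif1b to Eif1. They also overlapped for Eif1a to Eif1ax and Eif4ebp2 to Eif4ebp1. They did not overlap for Eif4a1 to Eif4a2, Eif4e2 to Eif4e, Eif4e3 to Eif4e and Eif2s3y to Eif2s3x. Both ratios to Eif4e share that gene, whose own groups did not overlap, while those of Eif4e3 did. How often ratios of other gene pairs separate the groups was not tested, and 27.5% of single genes did so.

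Eif4e, the cap-binding protein itself, had 121.2, 117.9 and 122.3 CPM in Ep300 siRNA libraries, against 129.2, 143.7 and 127.5 CPM in control libraries. Its groups did not overlap, but the log2 fold change of −0.15 ± 0.06 (SE) did not pass (edgeR adjusted p = 0.193). Without control siRNA replicate 2, its highest library, it was −0.08. Eif4e2, a cap-binding relative known mainly as a repressor, had 192.2, 188.0 and 182.2 CPM in Ep300 siRNA libraries, against 171.9, 170.2 and 164.5 CPM in control libraries, and did not pass either (0.15 ± 0.06, SE; edgeR adjusted p = 0.14). The log2 ratio of Eif4e2 to Eif4e averaged 0.64 ± 0.05 in Ep300 siRNA libraries and 0.34 ± 0.09 in control libraries (SD, n = 3), and the groups did not overlap. The eIF4E-binding proteins, which keep eIF4E from eIF4G, gave no call. Eif4ebp1 was by far the highest of the 3, at 35.5 CPM per kb in Ep300 siRNA and 34.6 in control libraries, with a log2 fold change of 0.03 (edgeR adjusted p = 0.872). Eif4ebp3 had the smallest p of the 3 (log2 fold change −0.27 ± 0.25, SE; edgeR adjusted p = 0.58) and rested on 30 to 66 counts. Of its exon bases 67.3% are shared with a same-strand read-through gene, so its reads may be split.

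Among the helicase genes, Eif4a1, which encodes the main eIF4A of dividing cells (GRCm38 chromosome 11, 69666936 to 69672423, minus strand), rose 1.21-fold. It had 726.3, 718.7 and 753.4 CPM in Ep300 siRNA libraries, against 614.9, 620.5 and 577.2 CPM in control libraries, with no overlap. On the log2 scale this was 0.28 ± 0.06 (SE; 95% interval from 0.14 to 0.42), with an edgeR adjusted p of 0.0219. The call was lost without Ep300 siRNA replicate 2 (edgeR adjusted p = 0.0578) or 3 (0.0896) and without control siRNA replicate 2 (0.0563) or 3 (0.0858), while the log2 fold change stayed between 0.25 and 0.31. The same-strand snoRNA genes Gm24029 and Gm22988 overlap 3.30% and 3.32% of the exon bases of Eif4a1. Eif4a1 also has processed pseudogenes that can take some of its reads. One in the table, Eif4a-ps4, had 22.4 ± 0.94 CPM in Ep300 siRNA and 18.9 ± 1.82 CPM in control libraries (SD, n = 3; log2 fold change 0.25, edgeR adjusted p = 0.113). Eif4a2, the paralog with overlapping function, had 172.0, 183.3 and 185.4 CPM in Ep300 siRNA libraries, against 180.3, 179.4 and 172.9 CPM in control libraries, and the groups overlapped (log2 fold change 0.02, 95% interval −0.11 to 0.15). The log2 ratio of Eif4a1 to Eif4a2 averaged 2.02 ± 0.05 in Ep300 siRNA libraries and 1.77 ± 0.03 in control libraries (SD, n = 3). Eif4a3, Eif4b and Eif4h were at −0.03, 0.10 and −0.06 on the log2 scale, and none of them passed.

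The promoter windows of Eif4g3 and Eif4a1 are shown because both genes, which encode partners in the eIF4F complex, rose. The windows, from RefSeq on build GRCm38.p6, run from 250 bases before to 50 after the annotated start, and each is written in the direction of transcription. Capitals mark matches on either strand to an interferon-stimulated response element core (GAAA, any 2 bases, GAAA), an E-box (CACGTG), a cyclic AMP response element (TGACGTCA), a CCAAT box (CCAAT) or a GC box (GGGCGG). The RefSeq start of Eif4g3 lies 433 bases downstream of the gene start given above from GENCODE, while that of Eif4a1 is the same in both. The Eif4g3 window is chr4:137993205-137993504 on the plus strand and the Eif4a1 window chr11:69672374-69672673 on the minus strand.
Eif4g3: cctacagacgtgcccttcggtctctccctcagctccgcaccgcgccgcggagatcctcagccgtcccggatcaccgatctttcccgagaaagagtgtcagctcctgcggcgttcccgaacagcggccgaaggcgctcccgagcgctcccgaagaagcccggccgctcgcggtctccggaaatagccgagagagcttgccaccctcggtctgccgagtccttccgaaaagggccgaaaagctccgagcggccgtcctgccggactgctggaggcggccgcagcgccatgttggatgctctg
Eif4a1: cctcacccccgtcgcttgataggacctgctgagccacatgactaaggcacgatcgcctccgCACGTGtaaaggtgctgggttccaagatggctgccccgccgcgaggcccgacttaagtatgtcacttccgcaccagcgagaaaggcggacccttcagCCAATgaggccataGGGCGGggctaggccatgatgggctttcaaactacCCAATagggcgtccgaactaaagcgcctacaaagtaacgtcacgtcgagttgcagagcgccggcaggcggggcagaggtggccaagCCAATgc
No match to these motifs was found in the Eif4g3 window, which does not cover the GENCODE start. The Eif4a1 window held an E-box 189 bases upstream of the start, 3 CCAAT boxes and 1 GC box. An E-box was found in 7.24% of 27025 windows of this length and in 7 of the 42 windows matched to tested members. A CCAAT box was found in 37.9% of all windows and in 12 of the 42, and a GC box in 35.9% of all windows and in 31 of the 42. A cyclic AMP response element was found in 1.88% of all windows and in 0 of the 42. A match is a description of the letters and not evidence of binding.

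**Figure D3:**
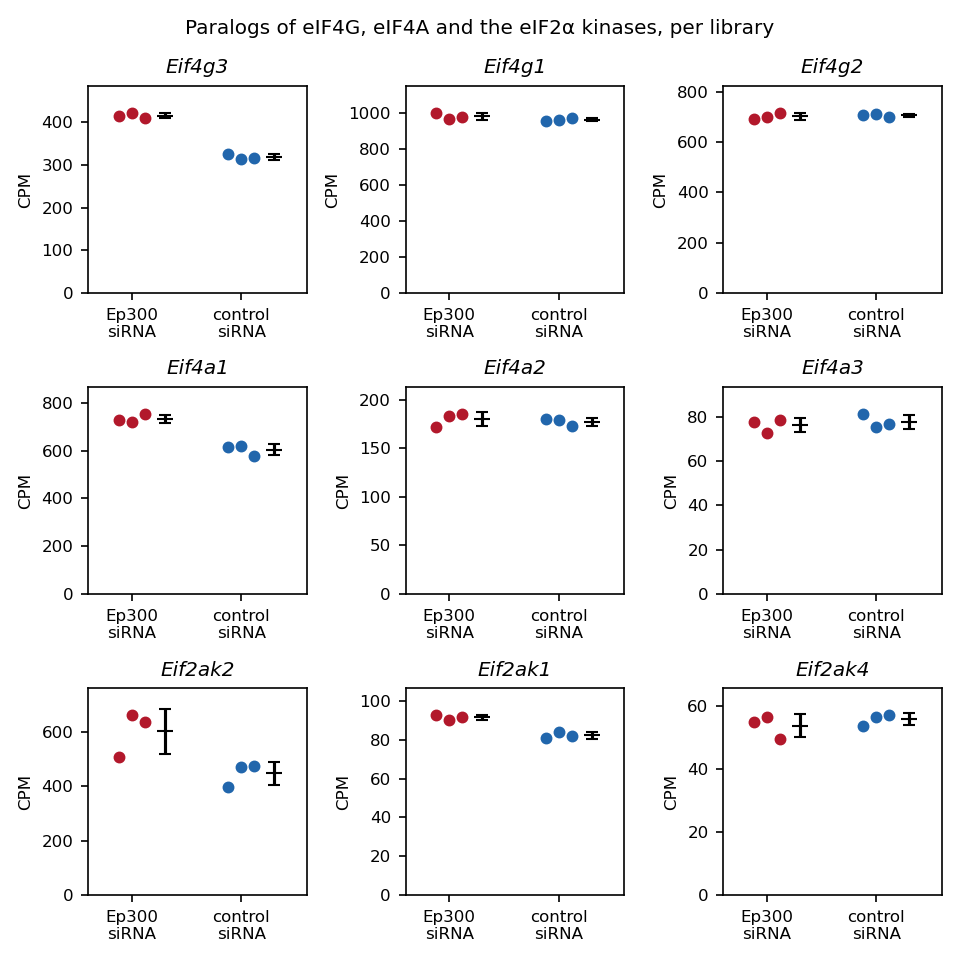
CPM in each of the 3 Ep300 siRNA libraries (red, left) and 3 control siRNA libraries (blue, right) for members of the eIF4G, eIF4A and eIF2 alpha kinase families; black marks give the mean ± SD, and each axis starts at 0. Eif4g3 lies between 410.5 and 421.9 after Ep300 siRNA and between 314.3 and 326.0 after control siRNA, while Eif4g1, Eif4g2, Eif4a2, Eif4a3 and Eif2ak4 overlap between groups.

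The eIF2 alpha kinases respond to different stresses and lower initiation by phosphorylating eIF2. Eif2ak2, which encodes the double-stranded RNA sensor PKR (GRCm38 chromosome 17, 78852564 to 78882573, minus strand), was the kinase gene that passed. It had 505.2, 661.0 and 636.3 CPM in Ep300 siRNA libraries, against 398.4, 468.6 and 474.2 CPM in control libraries. The groups did not overlap, but replicate 1 was the lowest library of each. The rise was 1.34-fold (log2 fold change 0.43 ± 0.10, SE, 95% interval 0.20 to 0.65; edgeR adjusted p = 0.03). The call was lost when any library other than Ep300 siRNA replicate 1 was left out. With Ep300 siRNA replicate 2 or 3 left out, the edgeR adjusted p was 0.115 or 0.1, and with control siRNA replicate 1, 2 or 3 left out it was 0.063, 0.0714 or 0.0521. Without Ep300 siRNA replicate 1 the log2 fold change was 0.55 (edgeR adjusted p = 0.00474).

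Eif2ak2 is itself a known interferon-stimulated gene, and other such genes moved with the library too. In a list of 25 of them, which does not hold Eif2ak2, 20 had positive log2 fold changes (median 0.20), and the groups overlapped for all but Adar. By edgeR 0 of the 25 passed and 5 (Stat2, Dhx58, Parp14, Adar and Oas1a) reached an unadjusted p under 0.05, which 22.2% of all genes reached. DESeq2 called 3 of the 25 (8.94% of all genes) and limma-voom 0. With the replicate number as a block, edgeR called 8, of which 7 were higher (8.62% of all genes called). With no filter on low counts it called 12, of which 11 were higher (5.70% of all genes called). Without Ep300 siRNA replicate 1, 11 of the 25 rose by edgeR, against 1.87% of all genes. That run kept control siRNA replicate 1, the control library lowest for the list. With any other single library left out, control siRNA replicate 1 included, edgeR called 0 of the 25. The remaining alternatives that kept all libraries also gave 0. The summed level of the 25 genes ranged from 3517 to 5638 CPM in Ep300 siRNA libraries and from 3461 to 4755 CPM in control libraries. Taking each gene's log2 CPM minus its mean over the 6 libraries, their median was −0.33, 0.33 and 0.28 in Ep300 siRNA libraries, against −0.36, 0.05 and 0.03 in control libraries. Eif2ak2 on the same scale was at −0.03, 0.36 and 0.30 in Ep300 siRNA libraries, against −0.37, −0.14 and −0.12 in control libraries. The libraries lowest for the list were thus replicate 1 of each group, as for Eif2ak2, and the part of this pattern in the rise of Eif2ak2 was not tested.

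**Figure D4:**
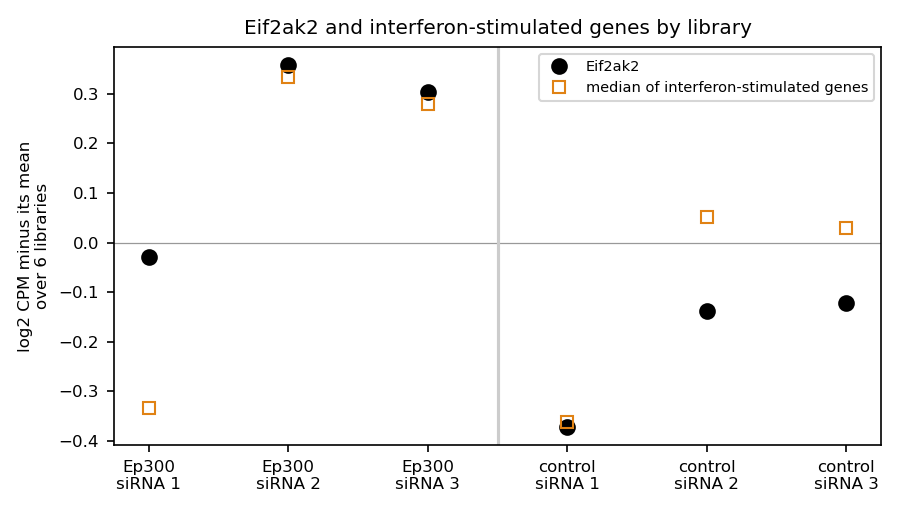
Log2 CPM minus its mean over the 6 libraries, for Eif2ak2 (black circles) and for the median of 25 interferon-stimulated genes (open orange squares), with Ep300 siRNA libraries left of control siRNA libraries. Eif2ak2 is between −0.03 and 0.36 after Ep300 siRNA and between −0.37 and −0.12 after control siRNA; the list runs from −0.33 to 0.33 and from −0.36 to 0.05 in the same groups.

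The Eif2ak2 promoter window is shown for its match to the interferon-stimulated response element core, in capitals (chr17:78882523-78882822, minus strand, RefSeq on GRCm38.p6, in the direction of transcription).
Eif2ak2: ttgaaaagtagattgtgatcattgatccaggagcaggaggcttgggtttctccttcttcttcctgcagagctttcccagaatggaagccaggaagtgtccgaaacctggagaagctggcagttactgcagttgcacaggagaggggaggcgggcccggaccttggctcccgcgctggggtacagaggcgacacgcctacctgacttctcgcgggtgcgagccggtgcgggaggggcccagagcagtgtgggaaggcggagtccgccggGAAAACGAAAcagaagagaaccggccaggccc
The match begins 18 bases downstream of the annotated start. The same core was found in 3.49% of all 27025 windows and in 4 of the 42 windows of tested members, those of Eif2ak2, Eif2s1, Eif2s3x and Eif3a. The other 3 of these genes did not pass the test, with log2 fold changes between −0.03 and 0.08.

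The other eIF2 alpha kinases gave smaller values. Eif2ak1, the heme-regulated kinase, had 92.7, 90.1 and 91.9 CPM in Ep300 siRNA libraries, against 80.8, 84.1 and 81.8 CPM in control libraries. Its groups did not overlap, and the log2 fold change of 0.15 ± 0.06 (SE) did not pass (edgeR adjusted p = 0.119). Of the exon bases of Eif2ak1 8.59% overlap Aimp2 and 3.03% overlap Ankrd61, both on the other strand. Eif2ak3, the kinase of endoplasmic reticulum stress, was at 0.01 and Eif2ak4, the amino acid sensor GCN2, at −0.05 on the log2 scale. Eif2ak2 made up 80.0% ± 2.7 of the summed kinase level per kilobase in Ep300 siRNA libraries and 75.9% ± 1.5 in control libraries (SD, n = 3), and the groups overlapped.

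The substrate of these kinases and its exchange factor gave no call. The log2 fold changes of the 6 genes of initiator tRNA delivery lay between −0.03 and 0.17. The smallest p was that of Eif2s3y, the Y-linked copy of the eIF2 gamma gene, with 50.5, 50.6 and 52.2 CPM in Ep300 siRNA libraries, against 45.6, 44.6 and 45.8 CPM in control libraries (log2 fold change 0.17 ± 0.06, SE; edgeR adjusted p = 0.0981). Its X-linked counterpart Eif2s3x overlapped between groups, at −0.02. The log2 ratio of the Y-linked to the X-linked copy was −1.40, −1.34 and −1.35 in Ep300 siRNA libraries, against −1.50, −1.65 and −1.50 in control libraries, without overlap. Reads may be split between these similar genes. Among the 5 subunits of eIF2B the log2 fold changes ran from −0.09 to 0.11. The smallest p was that of Eif2b5, the catalytic subunit, with 97.7 ± 3.88 CPM in Ep300 siRNA and 90.2 ± 2.21 CPM in control libraries (SD, n = 3; edgeR adjusted p = 0.279).

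The 14 genes of eIF3, the largest initiation complex, also gave no call. Their log2 fold changes ran from −0.21 to 0.26. Eif3c, the subunit gene next in level to Eif3a, had 1388, 1351 and 1300.4 CPM in Ep300 siRNA libraries, against 1210.4, 1262 and 1183 CPM in control libraries. Its groups did not overlap, but it did not pass (log2 fold change 0.14 ± 0.06, SE; edgeR adjusted p = 0.215). Eif3a overlapped between groups (0.08 ± 0.07, SE). Eif3j1, which encodes the loosely bound subunit eIF3j, had 212.8, 220.7 and 210.6 CPM in Ep300 siRNA libraries, against 231.3, 242.5 and 252.9 CPM in control libraries. This was the smallest p among the eIF3 genes (log2 fold change −0.17 ± 0.06, SE; edgeR adjusted p = 0.109). Of the exon bases of Eif3j1 18.99% overlap Spg11 on the other strand. Eif3j2, the near-identical copy of Eif3j1, was at −0.21 ± 0.10 (SE), and reads may be split between the copies. Eif3f, another MPN domain subunit, had the widest interval of the eIF3 genes (−0.01 to 0.54 on the log2 scale), with 52.3, 46.5 and 39.9 CPM in Ep300 siRNA libraries, against 37.0, 32.1 and 46.3 CPM in control libraries. Its groups overlapped.

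Start site selection and the last steps were likewise without a call. Eif1ad was grouped here only for its likeness to eIF1A. It had 64.1, 67.4 and 70.4 CPM in Ep300 siRNA libraries, against 77.1, 77.2 and 76.3 CPM in control libraries. It was the member nearest to the threshold among those that did not pass (log2 fold change −0.19 ± 0.06, SE; edgeR adjusted p = 0.0764), and it passed with library sizes alone (edgeR adjusted p = 0.0481). Of its exon bases 15.3% overlap Banf1 on the other strand. Eif5, the GTPase activator of eIF2, was at 0.13 ± 0.06 (SE) and Eif1, the start codon gatekeeper, at 0.00 ± 0.07 (SE), with its paralog Eif1b at 0.03 ± 0.11 (SE). Eif1a and Eif1ax, which encode near-identical eIF1A proteins, were at −0.08 and −0.11 on the log2 scale. Eif5b, the GTPase of subunit joining, Eif5a and Eif6 lay between −0.07 and 0.03, with Eif5a giving the smallest p (edgeR adjusted p = 0.593). Of the exon bases of Eif5b 16.85% overlap Rev1 on the other strand.

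Translation genes outside the symbol rule were taken from 2 lists chosen by function, with earlier results of these data known. Of 24 tested genes of elongation, termination and ribosome recycling, 1 rose and 1 fell. Etf1, the release factor eRF1 that recognises stop codons, rose 1.33-fold, with 282.7 ± 4.63 CPM in Ep300 siRNA and 213.0 ± 6.83 CPM in control libraries (SD, n = 3; log2 fold change 0.41 ± 0.06, SE; edgeR adjusted p = 0.00218). Hbs1l, which rescues stalled ribosomes, fell to 41.3 ± 0.88 CPM in Ep300 siRNA libraries, against 48.9 ± 2.20 CPM in control libraries (log2 fold change −0.24 ± 0.06, SE; edgeR adjusted p = 0.0356). The Etf1 call held with each library left out, whereas that of Hbs1l was lost with any one of the 6 left out (Ep300 siRNA or control siRNA replicate 1, 2 or 3; edgeR adjusted p from 0.0651 to 0.127). Of 48 regulators and partners of initiation, 3 rose and 1 fell. The calls were 8.33% of the tested genes in each list, against 6.78% of all genes. An unadjusted edgeR p under 0.05 was reached by 6 of the 24 and 18 of the 48, against 22.2% of all genes. The groups did not overlap for 8 of the 24 and 21 of the 48, against 27.5% of all genes.

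Some of these calls lie on the same step as Eif2ak2, while other genes of that step did not pass. Among the latter, Ppp1r15b, a paralog of Ppp1r15a, was at −0.05 on the log2 scale (edgeR adjusted p = 0.697). Eif2s1, the eIF2 alpha gene, was at −0.03 (edgeR adjusted p = 0.827). Ppp1r15a, the stress-induced subunit GADD34 that directs a phosphatase to eIF2 alpha, fell to 184.3 ± 10.7 CPM in Ep300 siRNA libraries, against 232.1 ± 11.7 CPM in control libraries (SD, n = 3; log2 fold change −0.33 ± 0.07, SE; edgeR adjusted p = 0.0124). The call was lost without Ep300 siRNA replicate 1 (edgeR adjusted p = 0.0535) or control siRNA replicate 2 (0.0757). Ppp1cb, a catalytic subunit of protein phosphatase 1, rose 1.38-fold, with 80.2 ± 1.54 CPM in Ep300 siRNA and 58.2 ± 0.75 CPM in control libraries (log2 fold change 0.46 ± 0.06, SE; edgeR adjusted p = 0.000919), and passed with each library left out. The other rises, named after their values were seen, were those of Mknk2, a kinase that phosphorylates eIF4E (0.35 ± 0.07, SE; edgeR adjusted p = 0.0105), and of Impact, an inhibitor of GCN2 (0.29 ± 0.06, SE; edgeR adjusted p = 0.0192). Mknk2 did not pass without Ep300 siRNA replicate 2 (edgeR adjusted p = 0.0533), nor Impact without that library (0.0799) or control siRNA replicates 2 (0.0619) or 3 (0.0741). Atf4, whose mRNA is translated when eIF2 alpha is phosphorylated, had 186.6 ± 10.7 CPM in Ep300 siRNA and 221.7 ± 26.0 CPM in control libraries and did not pass (SD, n = 3; edgeR adjusted p = 0.102). It passed by DESeq2 (adjusted p = 0.0496) and by edgeR with no filter on low counts (adjusted p = 0.00776). Its log2 fold change was −0.25, but −0.15 without control siRNA replicate 1. Protein levels and eIF2 alpha phosphorylation were not measured in these libraries.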

How the data were processed

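Each library had 1 column of raw read counts in the deposited table, which the authors had not normalized. The submitters' processing notes name fastp 0.23.4, STAR 2.5.3a, edgeR 3.12.1, featureCounts and GRCm38. Counting settings for strand and multimapped reads were not given in these sources. Per the labels, libraries were stranded and started from 2 µg of RNA. Counts of 1 to 4 were even in 79.8% to 80.9% of cases, so halved counts were an alternative.

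The whole table was fitted with edgeR 4.0.16 in R 4.3.3 (filterByExpr, TMM, quasi-likelihood F-test). Two-sided p-values were adjusted by Benjamini-Hochberg over 15741 genes, with a threshold of 0.05. The fit was also run on simulated data, with the outcome not given here. Alternatives changed the scaling or filter, blocked by replicate number, used DESeq2 1.42.0 or limma-voom (limma 3.58.1), or left out each library. Lengths and coordinates are from GENCODE M21. RefSeq promoter windows matched 42 of 53 tested members.

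Members and lists were chosen with earlier results of these data known. Named are members that passed, the smallest p of each role, the 5 highest levels per length, paralogs and, per outside list, the smallest p in each direction. Eif3f, Atf4, Mknk2, Impact, Ppp1r15b and other members given by a single value were added after their values were seen.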

Additional observations from a re-analysis of the deposited data

How the results depend on the processing

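The 3 members that passed were called in each of the 9 alternatives that kept all libraries. Another was added with library sizes alone (Eif1ad, lower) and with no filter on low counts (Eif3f, higher). With a library left out, 1 to 3 members were called, and Eif4g3 was among them each time. Over all genes, 1068 were called (435 higher, 633 lower), against 316 higher and 788 lower with library sizes alone, 1721 called with no filter, which tests more genes, and 490 to 1054 with a library left out. Of the outside translation genes (24 and 48 tested in the main fit) 6 were called, where 6.78% of all genes were. With no filter 11 were called (5.70% of all genes), and by DESeq2 10 (8.94% of all genes). With a library left out 3 to 6 were called. The median log2 fold change of the members was −0.0085 with library sizes alone, where that of all genes was −0.0377, and 0.0125 to 0.0539 with a library left out. The cause of these shifts was not tested. Over all genes, the deviations of same-numbered libraries correlated at r = 0.087, 0.02 and −0.047 for replicates 1, 2 and 3. For replicate 1 of each group this was the highest r with any library of the other group. Ep300 siRNA replicate 2 correlated best with control replicate 3 (0.088). Eif2ak2 and the list of interferon-stimulated genes were lowest in replicate 1 of each group. With 3 libraries a group these values cannot settle whether the numbers pair the samples. With the replicate number as a block, 3 members and 1357 genes were called. CPM values are relative, so a change in total mRNA per cell would not be seen.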
